A study of Mus musculus with 20 samples.

Results

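The genes described here encode 8 transcription factors of the AP-1 and ATF3 class in mouse gastrocnemius, a calf muscle made mostly of fast fibres. They are Fos, Fosb, Fosl2, Jun, Junb, Jund, Atf3 and Maff. The members were chosen by name, with earlier results of these data known, 1 row each from the 53311 rows of a count table. All 8 were among the 13560 genes with enough counts to be tested. Fosb passed that filter only through exercised vehicle muscle (16 to 46 counts per library, at most 6 elsewhere), so its counts in the other groups carry little weight. All 8 genes encode proteins with a basic leucine zipper, the DNA-binding and pairing domain of this class. Fos proteins bind DNA as partners of Jun proteins, and such pairs form the factor AP-1. ATF3 is a stress-induced relative, and MAFF is a small MAF protein that lacks an activation domain and pairs with NRF2 or BACH1. Several of these genes are immediate early genes: contraction, calcium, cAMP and stress kinases switch them on within minutes in muscle, and their transcripts decay within hours.

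RNA was sequenced from 20 muscles in 4 groups of 5. All samples were labelled with the genotype Cre+:iMSBmal1 fl/fl, so the vehicle samples also carried Cre and the floxed Bmal1 alleles. The label of the treatment was either vehicle or iMSBmal1KO, the muscle knockout of the clock factor BMAL1. Muscles came from resting animals at zeitgeber time 13, or were taken 1 h after 30 min on a treadmill, labelled ZT13-1 Hour Post. The promoter that drives Cre, the inducing agent, and the age, sex and strain of the animals are not given in the sources used here. Nothing in the labels says that the samples of a group were different animals, so p-values measure the spread between samples, which may be in part technical. The replicates are numbered in the titles.

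Library totals ran from 8045154 to 11269812 counts, and mitochondrial transcripts took 7.55% to 14.96% of them. The targeted gene, Arntl (Bmal1), was not lower in the samples labelled knockout: at rest its level, as CPM (counts scaled to library size), was 12.3 ± 2.39 under vehicle and 14.5 ± 1.94 under the knockout label (SD, n = 5 each), and the log2 fold change was 0.24 (SE 0.23, adjusted p 0.725). After exercise the log2 fold change of Arntl was 0.20 (SE 0.23, adjusted p 0.689). Counts per gene do not show whether the floxed exon was deleted, so these values neither show nor exclude the knockout. Each direction between genotypes given here rests on the labels, and the samples are called knockout-labelled. Fibre markers (Acta1, Ckm, Des, Tnnt3, Myh4, Myh1, Myh2 and Pvalb) summed to between 104646 and 178589 CPM in every library. In whole muscle, fewer cells of a type and less RNA per cell cannot be told apart.

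The stretch just before the transcription start can hold some of the sequences through which a gene of this class reads signals. It is printed for 5 members. These are 3 that rose with exercise (Fosb, Junb, Maff), Fos, which did not pass the test, and Jun, which stayed level in value. Each line gives bases 250 to 11 before the start, 5′ to 3′ on the gene's strand, from RefSeq on GRCm38.p6. Capitals mark the searched motifs. Maff has 3 annotated starts, and the second in genome order is shown.
Fos, chr12:85473640-85473879, plus strand: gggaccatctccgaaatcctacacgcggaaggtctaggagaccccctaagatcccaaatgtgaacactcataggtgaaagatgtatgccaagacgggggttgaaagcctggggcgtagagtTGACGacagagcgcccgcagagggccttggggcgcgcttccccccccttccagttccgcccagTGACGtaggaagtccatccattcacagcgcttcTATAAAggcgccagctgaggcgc
Fosb, chr7:19310056-19310295, minus strand: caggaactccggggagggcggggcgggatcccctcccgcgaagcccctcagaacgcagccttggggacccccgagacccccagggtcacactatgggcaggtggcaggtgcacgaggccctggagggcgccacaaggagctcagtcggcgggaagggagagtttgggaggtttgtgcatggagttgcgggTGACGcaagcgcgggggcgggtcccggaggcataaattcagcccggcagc
Junb, chr8:84978759-84978998, minus strand: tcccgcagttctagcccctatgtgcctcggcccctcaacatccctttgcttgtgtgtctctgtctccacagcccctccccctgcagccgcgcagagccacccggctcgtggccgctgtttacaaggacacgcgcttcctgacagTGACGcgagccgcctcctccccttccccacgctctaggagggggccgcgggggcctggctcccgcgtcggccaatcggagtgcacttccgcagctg
Maff, chr15:79347270-79347509, plus strand: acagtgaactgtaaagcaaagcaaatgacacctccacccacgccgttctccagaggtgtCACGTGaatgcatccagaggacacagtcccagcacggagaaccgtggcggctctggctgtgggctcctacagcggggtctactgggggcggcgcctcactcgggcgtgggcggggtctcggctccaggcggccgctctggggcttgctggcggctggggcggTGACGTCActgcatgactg
Jun, chr4:95052233-95052472, minus strand: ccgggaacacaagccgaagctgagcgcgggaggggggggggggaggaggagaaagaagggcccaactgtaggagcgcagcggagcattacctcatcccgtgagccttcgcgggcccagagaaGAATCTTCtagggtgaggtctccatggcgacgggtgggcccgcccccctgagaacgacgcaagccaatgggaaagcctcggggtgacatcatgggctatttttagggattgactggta

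Motifs were sought on both strands in the 250 bases before each RefSeq start. The core of the cAMP response element, TGACG, which CREB and ATF factors bind, was present for 5 of the 8 members (Fos, Fosb, Junb, Atf3 and Maff, in 6 of 10 windows) and in 17.8% of 32851 promoter windows. The full palindrome TGACGTCA, which contains that core on both strands, stood 29 bases before the shown Maff start and was present in 1.55% of all windows. Fos held the core 129 and 66 bases and TATAAA 33 bases before its start, with TATAAA in 12.4% of windows. The E-box CACGTG, the sequence that CLOCK and BMAL1 bind, was found for 1 member, Maff, 191 bases before the shown start, and in 6.02% of windows. Of the Maff windows not shown, the first held none of the searched motifs. The third held only TGACG, and 95 of its 240 bases from 250 to 11 before the start lie within GENCODE M21 exons. GAANNTTC, the heat shock element, was found in Fosl2 and Jun, and in 6.69% of windows. The AP-1 site TGANTCA (6.75% of windows) and the serum response element, the CArG box (1.47%), had no match in the members' windows. Sites farther upstream, and sites that differ from these letters, were not sought, so their absence from these genes is not shown. Members with the core included 3 that rose with exercise in vehicle and 2 that did not pass, while Fosl2 rose without a core in its window. That window lies within GENCODE M21 exons over all 240 bases from 250 to 11 before its RefSeq start, so it is not upstream of every annotated Fosl2 start, and no comparison with the other members is drawn from it.

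Per kilobase of annotated exon, the levels fell into 3 tiers. Jun and Jund, the members with high resting transcript levels, stood at 29.4 ± 2.76 and 23.4 ± 4.08 CPM per kilobase in vehicle at rest (SD, n = 5 each). Atf3 stood at 3.34 ± 2.80, Junb at 1.63 ± 0.619, Fosl2 at 1.43 ± 0.264, Fos at 1.03 ± 0.832 and Maff at 0.916 ± 0.382 CPM per kilobase, and these 5 overlapped in range with their neighbours in that order. Fosb was lowest, at 0.0587 ± 0.0191 CPM per kilobase. After exercise in vehicle the level of Junb per kilobase was 10.7 ± 11.3, above Atf3 (6.59 ± 5.51), Maff (4.07 ± 2.00), Fosl2 (3.83 ± 2.29) and Fos (2.91 ± 1.64), although these ranges overlapped. Without vehicle after exercise replicate 4, Junb stood at 5.79 ± 2.51 CPM per kilobase (SD, n = 4), below Atf3 (7.003 ± 6.28), and Fosl2 (2.85 ± 0.756) below Fos (3.27 ± 1.65). With all 5 libraries, Jun (29.4 ± 7.86) and Jund (23.5 ± 6.09) stood at mean levels close to those at rest.

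**Figure D1:**
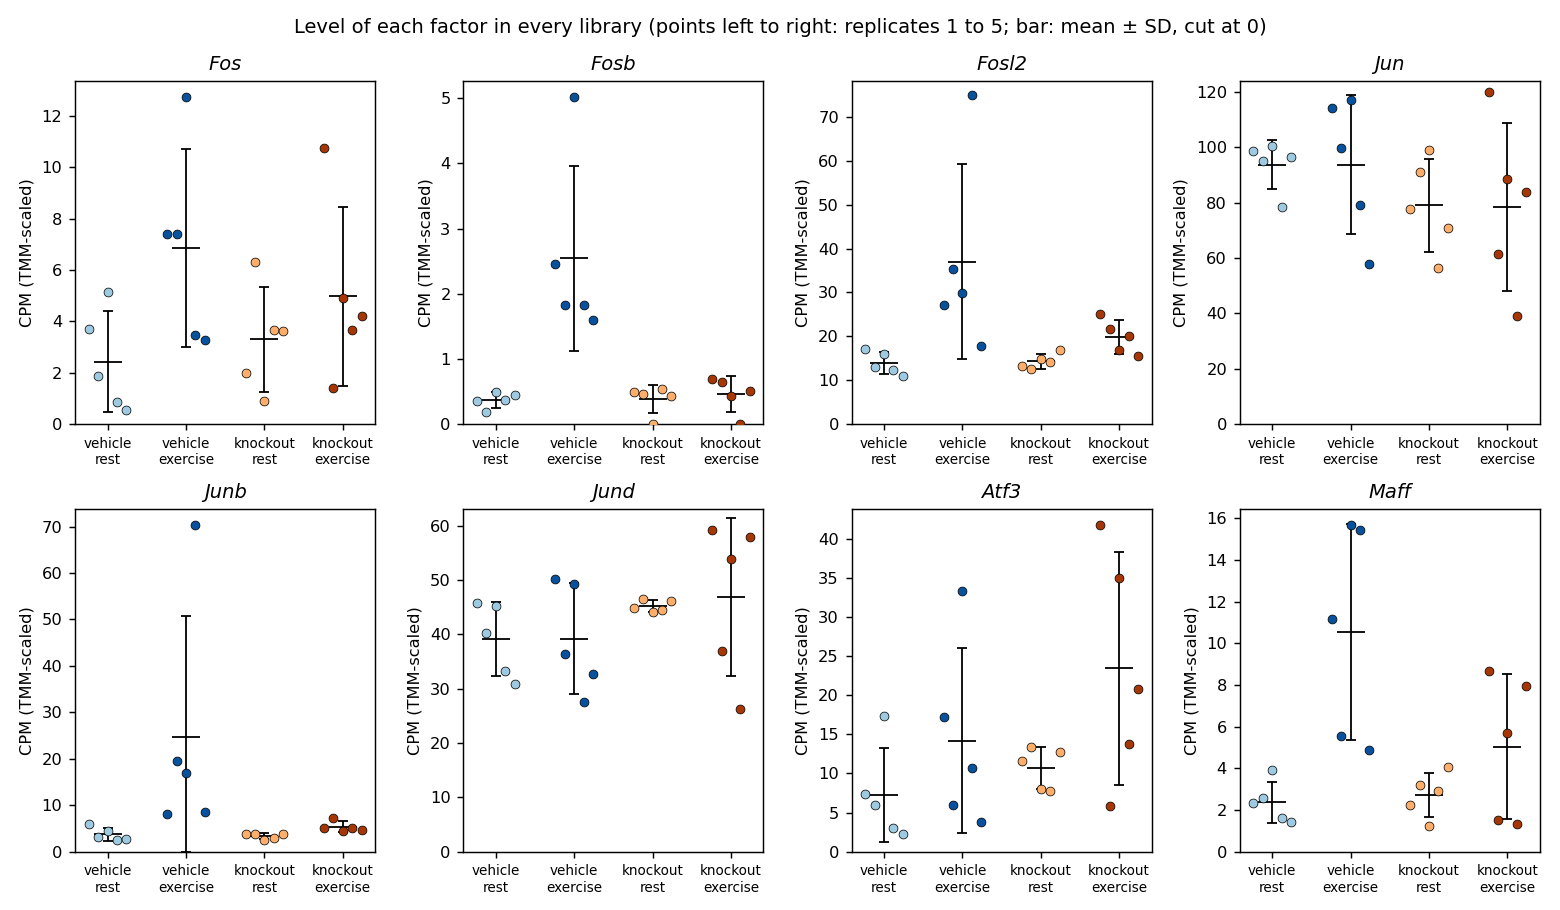
Level of each of the 8 factors in CPM (vertical axis, linear, a separate scale per panel) in the 20 libraries of the 4 groups; points are replicates 1 to 5 from left to right and bars are mean ± SD, cut at 0. Fosb, Fosl2, Junb and Maff in vehicle after exercise lie above every vehicle library at rest, and replicate 4 of vehicle after exercise is highest for Junb (70.3 CPM) and Fosl2 (75.0 CPM).

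The first question was which of these factors a single bout of treadmill running changed in vehicle muscle. Of the 8 members, 4 rose (adjusted p under 0.05, called from here on): Fosb, Junb, Maff and Fosl2. Across all genes tested, 0.605% were called higher and 0.804% in either direction. Fitted values were above 0 for 7 of the 8, against 50.0% of all genes, and the members' median log2 fold change was 1.46, against 2.59e-05 over all genes. The ranges did not overlap for the same 4 members, and for 1.18% of all genes in this direction. Because the members were chosen with earlier results of these data known, these shares describe them and are not a test of the set.

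Fosb, the Fos relative whose short splice form persists after repeated stimulation in nerve cells, was nearly absent at rest. Its vehicle libraries at rest held 3, 2, 4, 3 and 4 counts in replicates 1 to 5, or 0.348, 0.179, 0.491, 0.369 and 0.444 CPM. After exercise they held 24, 16, 46, 17 and 17 counts, or 2.46, 1.82, 5.01, 1.83 and 1.59 CPM. All exercised libraries were above all resting ones, with replicate 3 highest. edgeR put the log2 fold change at 2.78 (adjusted p 0.00588, SE 0.50). Because so few reads lay behind the resting level, the ratio of summed counts (120 against 16, scaled to library totals) was also taken: it was 6.94, with an exact 95% interval from 4.10 to 12.5 that covers counting error only.

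Junb, which pairs with Fos proteins and can restrain c-Jun, stood at 5.92, 3.14, 4.41, 2.46 and 2.78 CPM in vehicle at rest. After exercise it stood at 8.21, 19.6, 16.9, 70.3 and 8.62 CPM. The groups did not overlap, and replicate 4 was far above the other exercised libraries. The rise was 2.72 in log2 terms (adjusted p 0.0150, SE 0.51). Without vehicle after exercise replicate 4 it was 1.83, with an adjusted p of 0.00163. A part of the Junb exons (7.52%) overlaps Prdx2 on the opposite strand, which was not called (log2 fold change 0.13, adjusted p 0.881).

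Fosl2, which encodes FRA-2, a Fos relative with slower and longer induction than c-Fos, stood at 17.1, 12.99, 15.9, 12.4 and 10.9 CPM in vehicle at rest and at 27.2, 35.3, 30.0, 75.0 and 17.8 CPM after exercise. The lowest exercised library was just above the highest resting one, and replicate 4 was again highest. The rise came to 1.42 on the log2 scale (adjusted p 0.0173, SE 0.28), and 0.99 (adjusted p 0.00880) without vehicle after exercise replicate 4. Leaving out 1 library at a time ended the calls of Junb and Fosl2 in 3 of 10 cases each, those of vehicle at rest replicates 2, 4 and 5, where adjusted p reached 0.0606 for Junb and 0.0653 for Fosl2. Both were also lost when only the 2 vehicle groups were fitted (adjusted p 0.229 and 0.213), and Junb with limma-voom (0.0649).

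Maff stood at 2.32, 2.60, 3.92, 1.60 and 1.44 CPM in vehicle at rest and at 11.2, 5.58, 15.7, 15.4 and 4.87 CPM after exercise. All exercised libraries were above all resting ones. The rise of 2.14 on the log2 scale (adjusted p 0.0455, SE 0.49) lay close to the threshold. It passed in 2 of the 10 fits that each lacked 1 library (vehicle after exercise replicate 5, adjusted p 0.0220, was 1 of them), and the least firm, which lacked vehicle at rest replicate 5, gave 0.144. It passed in 5 of the other 9 alternatives; with the replicate number as a block, its adjusted p was 0.105. Fosb was called in all 10 fits without 1 library and in all 8 alternatives that tested it. Adjusted p-values over those alternatives ran from 4.08e-05 to 0.0393. Fosb passed the count filter only through exercised vehicle muscle, its high group, so these fits are not separate evidence for its rise.

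The classical immediate early gene Fos did not pass. It stood at 3.71, 1.88, 5.15, 0.861 and 0.555 CPM in vehicle at rest and at 7.39, 7.40, 12.7, 3.45 and 3.28 CPM after exercise. The groups overlapped, since resting libraries 1 and 3 exceeded exercised libraries 4 and 5. The log2 fold change was 1.50 (95% interval 0.23 to 2.77, unadjusted p 0.0229, adjusted p 0.419). Atf3 stood at 7.42, 6.002, 17.3, 3.08 and 2.22 CPM at rest and at 17.2, 5.92, 33.3, 10.7 and 3.84 CPM after exercise, with wide overlap (log2 fold change 0.99, interval -0.36 to 2.33, adjusted p 0.741). Across the 20 libraries the within-group SD of log2 CPM was 1.01 for Atf3 and 1.00 for Fos, against a median of 0.27 over all genes, so changes of the size seen were not resolved for these members.

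Jun and Jund, which encode partners of the Fos proteins, were level in value. Jun ranged from 78.5 to 100.4 CPM with a median of 96.5 in vehicle at rest, and from 57.9 to 117 CPM with a median of 99.8 after exercise. Its log2 fold change was -0.00 (interval -0.50 to 0.50, adjusted p 0.999), and its sign changed between settings. Jund ranged from 30.9 to 45.8 CPM at rest (median 40.2) and from 27.5 to 50.3 CPM after exercise (median 36.4), a log2 fold change of 0.01 (interval -0.40 to 0.41, adjusted p 0.997) whose sign also depended on the setting. Exons of Jun share 7.28% of their bases with the antisense gene Junos, and exons of Jund share 52.6% with the antisense gene Gm11175. The strand setting of the counting is not given, so reads of Jund and Gm11175 cannot be told apart.

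**Figure D2:**
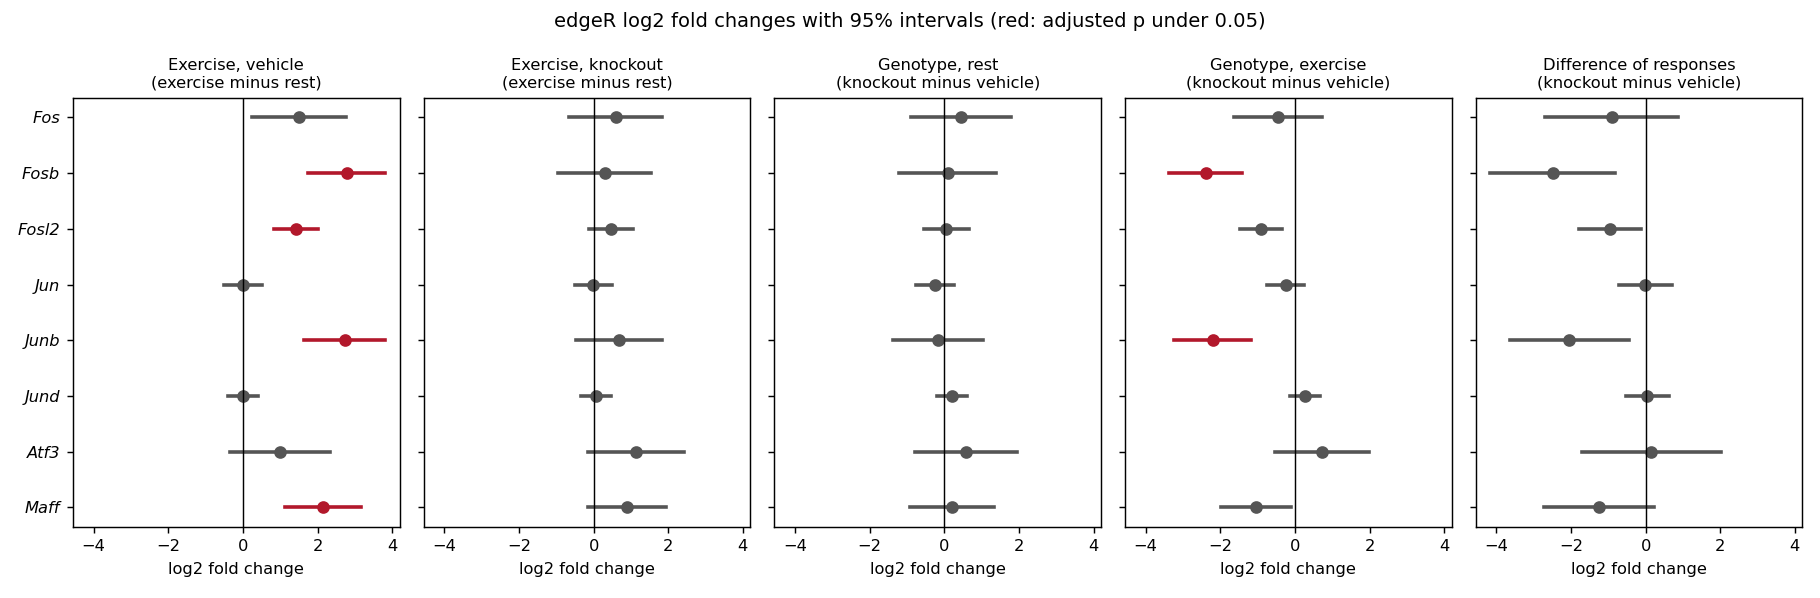
Log2 fold changes (horizontal axis) of the 8 factors in the 5 comparisons, with 95% intervals from the edgeR fit and calls in red. Calls are Fosb, Fosl2, Junb and Maff for exercise in vehicle, and Fosb and Junb for genotype after exercise; the other 3 panels hold none.

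The same comparison in knockout-labelled muscle called none of the 8 members. No gene was called at all (0 of 13560, 0% of those tested; 639, or 4.71%, had an unadjusted p under 0.05, and DESeq2 also called 0). Fitted values were above 0 for 7 of 8 members, as in vehicle, against 50.0% of all genes. The members' median log2 fold change was 0.53, against 0.000266 over all genes. When only both knockout-labelled groups were fitted, Fosb did not pass the count filter and 7 members were tested, with 0 called. Junb stood at 3.73, 3.91, 2.44, 2.91 and 3.73 CPM at rest and at 5.21, 7.34, 4.49, 5.13 and 4.63 CPM after exercise. Its groups did not overlap, as was so for 0.487% of all genes in this direction. Yet the log2 fold change of Junb, 0.68 (interval -0.48 to 1.84), did not pass (adjusted p 1.00). The fit shares 1 estimate of spread over all groups, so this interval is not that of the knockout-labelled libraries alone. The SD of Junb log2 CPM was 0.275 at rest and 0.272 after exercise in knockout-labelled muscle, and 1.24 in vehicle after exercise. Fosl2 stood at 13.2, 12.5, 14.7, 14.2 and 16.9 CPM at rest and at 25.0, 21.6, 16.9, 20.1 and 15.4 CPM after exercise (log2 fold change 0.46, interval -0.13 to 1.05, adjusted p 1.00). Fosb stayed at 6 counts or fewer in every knockout-labelled library: 4, 4, 0, 5 and 4 at rest and 6, 6, 4, 0 and 6 after exercise. The ratio of its summed counts, 22 against 17, was 1.25 (exact 95% interval 0.632 to 2.50, for counting error only).

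Atf3 had the largest fitted response of the 8 in knockout-labelled muscle, a log2 fold change of 1.13 (interval -0.15 to 2.42, adjusted p 1.00). It stood at 11.6, 13.3, 7.97, 7.76 and 12.8 CPM at rest and at 41.8, 5.83, 35.0, 13.8 and 20.7 CPM after exercise. Exercised libraries lay both above and below the resting range. Maff was also widely spread after exercise but had no library below its resting range, with 2.24, 3.22, 1.22, 2.91 and 4.05 CPM at rest and 8.68, 1.51, 5.69, 1.35 and 7.97 CPM after exercise (log2 fold change 0.90, interval -0.14 to 1.94, adjusted p 1.00). Fos ranged from 0.886 to 6.32 CPM at rest and from 1.40 to 10.8 CPM after exercise. In replicates 2 and 4 of the exercised knockout-labelled group, Maff stood within its resting range.

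At rest none of the 8 members was called between genotypes, against 3.86% of all genes. With only both resting groups fitted, Fosb again failed the count filter, and 0 of the 7 members tested were called. Log2 fold changes of knockout-labelled against vehicle muscle ran from -0.25 for Jun (interval -0.75 to 0.25) to 0.58 for Atf3 (interval -0.79 to 1.95). Those of Fosl2 (0.05, interval -0.55 to 0.65) and Fosb (0.09) changed sign when some single libraries were left out. The ranges of all 8 overlapped between genotypes at rest, while those of 5.80% of all genes did not. Jund was tightly grouped in knockout-labelled muscle at rest, from 44.2 to 46.5 CPM.

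After exercise, 2 members were lower in knockout-labelled muscle, Fosb and Junb, against 3.75% of all genes called lower and 6.42% called in either direction. Under vehicle Fosb had 2.54 ± 1.42 CPM, and under the knockout label 0.459 ± 0.276 CPM (SD, n = 5), which differ by -2.39 on the log2 scale (adjusted p 0.00228, SE 0.47). The ratio of summed Fosb counts, 22 against 120, was 0.195 (exact 95% interval 0.118 to 0.308). That interval covers counting error only and leaves out the spread between libraries. For Junb the levels were 24.7 ± 26.0 and 5.36 ± 1.15 CPM, and the difference was -2.20 on the log2 scale (adjusted p 0.0105, SE 0.49). For both genes the ranges did not overlap, as was so for 3.59% of all genes in this direction. Both calls held in all 10 fits without 1 library. Fosb passed the count filter only through exercised vehicle muscle, so its fits are not separate evidence for this difference. Without vehicle after exercise replicate 4 the log2 fold change of Junb was -1.31 (adjusted p 0.00358), and the call was lost when only both exercised groups were fitted (adjusted p 0.107).

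Fosl2 lay just outside the threshold after exercise (37.0 ± 22.1 against 19.8 ± 3.81 CPM, vehicle first; -0.90 on the log2 scale, adjusted p 0.0537). It passed in 3 of the 9 alternatives, and without vehicle after exercise replicate 1 (adjusted p 0.0480) or replicate 5 (0.00854). Without vehicle after exercise replicate 4 its log2 fold change was -0.48 (adjusted p 0.117). Maff had 10.5 ± 5.19 CPM under vehicle against 5.04 ± 3.48 CPM (log2 fold change -1.04, interval -1.98 to -0.10, adjusted p 0.205). Atf3 had a positive value (0.73, interval -0.53 to 1.98, adjusted p 0.554), as did Jund (0.26, adjusted p 0.509), and Fos (-0.46) and Jun (-0.25) were not called. This comparison shares the exercised vehicle libraries with the exercise response in vehicle, so both rest on the same high values of Fosb and Junb.

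Whether the exercise response itself differed between genotypes was tested as the difference of both responses. None of the 8 members passed (0 called, and 0% of all genes; 791 genes, or 5.83%, had an unadjusted p under 0.05, and DESeq2 called 3 genes, none of them a member). Point estimates were above 0 for 2 of 8, against 50.3% of all genes. That of Fosb was -2.49 (interval -4.16 to -0.81, unadjusted p 0.00535, adjusted p 0.728), that of Junb -2.04 (interval -3.63 to -0.46, unadjusted p 0.0147, adjusted p 0.780) and that of Fosl2 -0.95 (interval -1.78 to -0.13, unadjusted p 0.0259, adjusted p 0.803). Those of Jun (-0.01, interval -0.71 to 0.70), Jund (0.05, interval -0.53 to 0.62) and Atf3 (0.15, interval -1.71 to 2.01) changed sign between settings.

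Beyond the group means, some members varied together from library to library. With group means removed, 9 of the 28 member pairs correlated over the 20 libraries, all 9 positively. Each had an adjusted permutation p under 0.05 for Pearson's r and for Spearman's rho. A set of Fos, Atf3, Maff, Jund and Jun held 8 of these 9 pairs. The share of passing pairs among other genes was not computed, so this count cannot be called particular to the members. Fos and Atf3 had r = 0.80 (adjusted p 0.0014) and rho = 0.75 (adjusted p 0.00592), and r was 0.79 without the 2 libraries farthest from the median of Fos. Atf3 and Maff had r = 0.80 (adjusted p 0.0014) and rho = 0.78 (adjusted p 0.00592), with 0.72 on the same check. The ninth pair was Fosl2 and Junb, with r = 0.87 (adjusted p 0.00722) and rho = 0.73 (adjusted p 0.00592). For this pair r was 0.62 without the 2 libraries farthest from the median of Fosl2. Within groups its r was 0.92 in vehicle at rest and 0.95 after exercise. In knockout-labelled muscle it was -0.21 at rest and 0.55 after exercise.

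Fosl2 and Junb did not pass with any of the other 6 members. Their r with Fos was 0.13 (adjusted permutation p 0.784) and 0.09 (adjusted p 0.807), and with Jund -0.16 (adjusted p 0.784) and -0.24 (adjusted p 0.625). Within single groups of 5 libraries these values varied in sign. In vehicle at rest, r with Fos was 0.94 for Fosl2 and 0.85 for Junb, and with Jund 0.95 and 0.88. In vehicle after exercise the same 4 values were -0.15, -0.25, -0.46 and -0.62. In knockout-labelled muscle, r of Junb with Fos was 0.72 at rest and -0.68 after exercise. The separation over the 20 libraries thus did not hold in every group. Of the exercised vehicle libraries, replicate 3 was highest for Fos, Fosb, Atf3, Jun and Maff. Replicate 4 was highest for Junb and Fosl2 and below the group mean for Fos, Fosb, Jun and Jund. Maff was high in both (15.7 and 15.4 CPM). Of the resting vehicle libraries, replicate 3 was highest for Fos (5.15 CPM), Atf3 (17.3 CPM) and Maff (3.92 CPM).

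**Figure D3:**
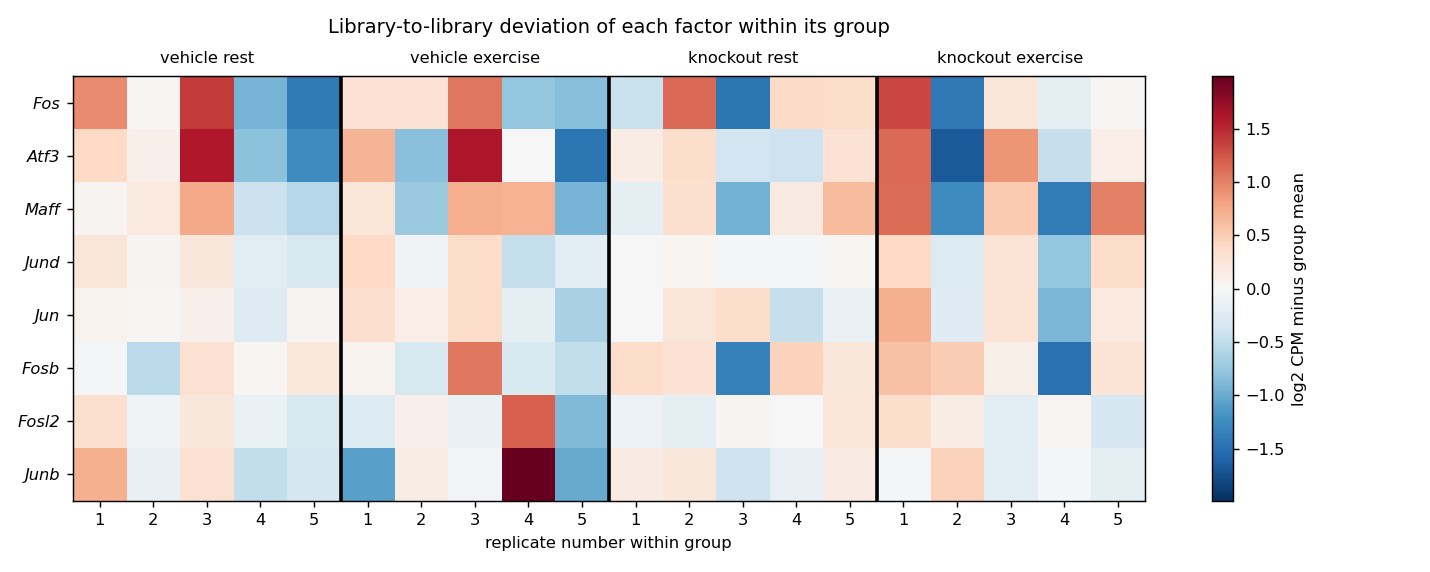
Deviation of each factor (rows) from its group mean in each of the 20 libraries (columns), in log2 CPM, with red above and blue below the mean. Fos, Atf3 and Maff are high together in replicate 3 of vehicle at rest and low together in replicate 2 of knockout-labelled muscle after exercise, while Junb and Fosl2 peak in replicate 4 of vehicle after exercise.

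**Figure D4:**
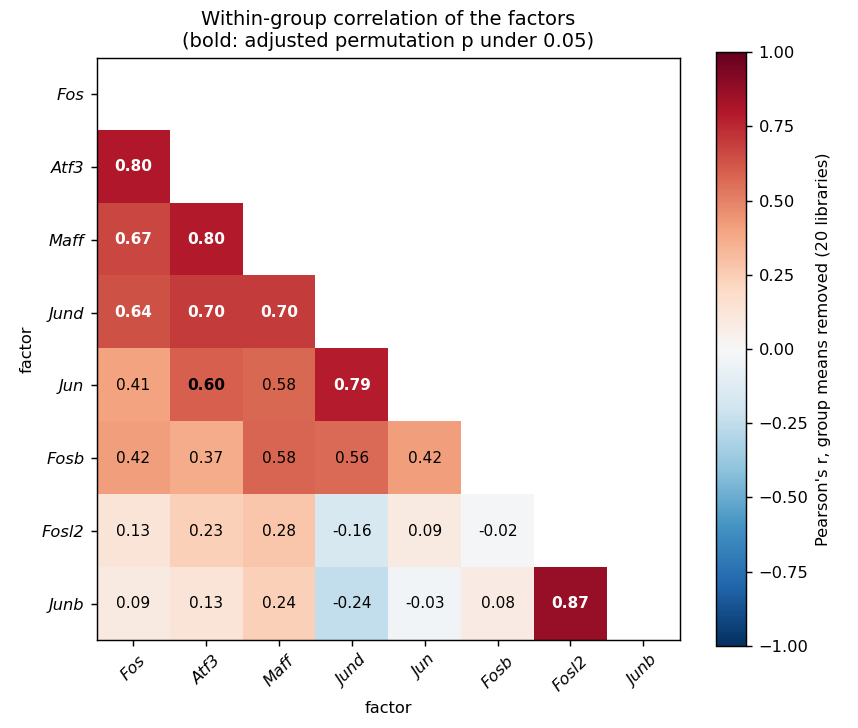
Pearson's r between factors over 20 libraries with group means removed (both axes list the 8 factors); bold values have an adjusted permutation p under 0.05. The block of Fos, Atf3, Maff, Jund and Jun holds 8 of the 9 bold values, and Fosl2 with Junb (0.87) is the ninth.

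Properties of the libraries moved with some members. With group means removed, the slow-fibre marker score, the mean log2 CPM of Myh7, Tnnt1, Tnni1, Tnnc1, Myl2, Myl3, Atp2a2 and Myoz2, correlated with Jund at r = 0.76 (adjusted permutation p 0.0721) and rho = 0.80 (adjusted p 0.0188), and r was 0.82 without its 2 farthest libraries. The mitochondrial share correlated with Atf3 at r = 0.61 (adjusted p 0.0721) and rho = 0.65 (adjusted p 0.0334), with 0.57 on that check, and with Jund at r = 0.57 (adjusted p 0.0721) and rho = 0.67 (adjusted p 0.0188), with 0.51. The mitochondrial share and Jun had r = 0.47 (adjusted p 0.105) and rho = 0.62 (adjusted p 0.0188), with 0.56. These 4 were the relations that passed with Spearman's rho among 40 of members with library properties, of which 0 passed with Pearson's r. The slow-fibre score also had r = 0.66 and rho = 0.68 with Atf3 (adjusted permutation p 0.105 and 0.0606), and r = 0.62 and rho = 0.56 with Maff (adjusted permutation p 0.128 and 0.166). For the other 3 members called for exercise in vehicle, Fosb, Fosl2 and Junb, r with either property ran from -0.29 to 0.31. With the slow-fibre score as a covariate, the same 4 members were called for exercise in vehicle.

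Markers of other cells were examined beside the exercise response. Summed slow-fibre markers ranged from 82.7 to 2541 CPM in vehicle at rest and from 37.8 to 2491 CPM after exercise, with all 8 genes tested and 0 called. Of the 5 satellite-cell markers, 4 were tested and 1 was called in vehicle after exercise, Sdc4 (log2 fold change 1.04, adjusted p 0.0289). Fitted values were above 0 for 1 of the 4, and their median was -0.05 on the log2 scale. At rest, 1 of the 4 was also called higher in knockout-labelled muscle. The summed level ran from 22.4 to 37.9 CPM in vehicle at rest and from 38.3 to 73.1 CPM after exercise. Most of it was Sdc4, at 24.4 ± 5.44 and 50.3 ± 13.7 CPM (SD, n = 5 each). Pax7, the defining satellite-cell gene, stood at 2.16 ± 0.513 and 1.91 ± 0.941 CPM. Neutrophil markers (S100a8, S100a9, Ly6g, Retnlg, Cxcr2) had at most 3 counts in any library, and Ly6g had 0 in all. The 6 macrophage markers summed to 21.7 to 45.1 CPM at rest and 24.6 to 48.5 CPM after exercise, and the 7 endothelial markers to 136 to 177 CPM and 91.5 to 164 CPM. Blood markers, 5 in number, ranged from 58.7 to 287 CPM at rest and from 57.7 to 366 CPM after exercise, and after exercise 1 of them, Hba-a2, was lower in knockout-labelled muscle (log2 fold change -1.90, adjusted p 0.0198). The mean scores of the 10 lists tested did not pass between any groups (40 exact permutation tests, smallest unadjusted p 0.103, adjusted p from 0.921). The part of these cells in the members' changes was not tested.

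Other basic leucine zipper partners moved less. Of 16 listed, 14 were tested, and 2 rose with exercise in vehicle: Nfe2l2, which encodes the oxidative stress factor NRF2, and Bach1, its repressive counterpart, both of which bind DNA with small MAF proteins such as MAFF. The median over the 14 was 0.23 on the log2 scale. Nfe2l2 rose from 34.7 ± 6.28 to 65.2 ± 12.7 CPM (SD, n = 5; log2 fold change 0.91, adjusted p 0.00179). Bach1 rose by a log2 fold change of 0.60 (adjusted p 0.00921). After exercise both were lower in knockout-labelled muscle (-0.57, adjusted p 0.0143, and -0.54, adjusted p 0.00404), as was none of the others. Mafa, a large MAF factor of fast fibres, was higher in knockout-labelled muscle at rest (0.84, adjusted p 0.0238) and after exercise (0.86, adjusted p 0.0146). The other small MAF genes, Mafg (0.14, adjusted p 0.753) and Mafk (0.46, adjusted p 0.811), did not pass with exercise in vehicle, nor did Fosl1 (-0.10, adjusted p 0.984).

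Among 22 tested genes of upstream kinases and factors (25 names listed, 2 of which are newer names of listed genes), 1 rose with exercise in vehicle. This was Crem, a cAMP-responsive factor whose short form ICER represses cAMP response elements (from 6.02 ± 1.09 to 12.9 ± 5.00 CPM, 1.10 on the log2 scale, adjusted p 0.00935). In knockout-labelled muscle at rest Map2k6, a kinase that activates p38, was lower (-0.99, adjusted p 3.81e-06). After exercise Map2k6 (-0.82, adjusted p 3.31e-05), Map2k3 (-0.41, adjusted p 0.0115) and Srf (-0.40, adjusted p 0.0380) were lower and Mapk8, the gene of the kinase JNK1 that phosphorylates c-Jun, was higher (0.38, adjusted p 0.0187). Of 18 genes listed as AP-1 or ATF3 targets, 10 were tested, and none was called with exercise in either genotype (medians 0.09 and 0.12 on the log2 scale). After exercise Hbegf was higher in knockout-labelled muscle (0.78, adjusted p 0.0472). Of 8 phosphatases that switch off these kinases, 7 were tested and 0 were called in any comparison. Over all genes tested, 0.804% were called for exercise in vehicle and 0% for exercise in knockout-labelled muscle. For genotype the shares were 3.86% at rest and 6.42% after exercise. At such shares, 0 calls among 10 or 7 genes do not show that these genes did not respond.

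The genes with the most similar pattern were sought for each member among 11716 other genes with a mean log2 CPM of at least 1, by Pearson's r of log2 CPM over the 20 libraries, as a description. For Junb they were Ell2 (r = 0.92, rho = 0.78) and Foxo1 (r = 0.89, rho = 0.81), and for Fosl2 they were Midn (r = 0.89, rho = 0.84) and again Ell2 (r = 0.87, rho = 0.74). For Maff they were Pim3 (r = 0.91, rho = 0.92) and Btg2 (r = 0.91, rho = 0.87), and for Fosb Rhof (r = 0.84, rho = 0.76) and Gm42838 (r = 0.84, rho = 0.76). Ell2, Foxo1, Midn, Btg2, Rhof and Gm42838 were themselves called higher with exercise in vehicle, and Pim3 was not (log2 fold change 0.82, adjusted p 0.127). For Atf3 they were Xirp1 (r = 0.88, rho = 0.89) and Fubp1 (r = 0.86, rho = 0.74), neither of which was called (adjusted p 0.898 and 0.967), and for Fos Zbtb10 (r = 0.83, rho = 0.80) and Ifrd1 (r = 0.83, rho = 0.77). The closest to Jund was its overlapping antisense gene Gm11175 (r = 0.93, rho = 0.94), followed by Smtnl1 (r = 0.89, rho = 0.89), and Jun was closest to A930037H05Rik (r = 0.84, rho = 0.72) and its antisense gene Junos (r = 0.81, rho = 0.78).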

How the data were processed

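The deposited table held whole-number counts per gene symbol for 20 samples, as deposited by the authors. The submitters' processing notes name STAR 2.7.8a, Partek, DESeq2, mm10 and GRCm39 without roles. The counter, annotation and strand setting are not given in the sources used here. Samples were grouped by title. The description of exercised knockout samples speaks of training, and they were analysed as acute exercise, as titled.

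Genes were filtered with filterByExpr of edgeR 4.0.16 (minimum 10 counts), which left 13560 genes with 99.83% of counts, and scaled by TMM. A robust quasi-likelihood model with 1 mean per group was fitted to all 20 samples in R 4.3.3. The 5 contrasts were tested with Benjamini-Hochberg adjustment over all genes and a threshold of 0.05. Each SE is the log2 fold change divided by the root of its F. Levels are CPM on TMM-scaled libraries. Log2 CPM used a prior count of 2. Marker scores used exact two-sided permutation tests over 252 relabellings (smallest possible p 0.00794), adjusted over 40. Correlations used 100000 permutations within groups, two-sided. Exon lengths and overlaps came from GENCODE M21. Scripts were tested on simulated counts.

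Members and lists were chosen with earlier results of these data known. Named genes were the members, called genes of the pathway lists (at most 3 per list and contrast), the 2 genes most like each member, and Arntl. Relations with library properties, and levels per kilobase without 1 library, were added after seeing the data. Alternatives were RLE and library-size scaling, DESeq2 1.42.0, limma-voom (limma 3.58.1), no filter or a minimum of 30 counts, fits of only the groups compared, the replicate number as a block, the slow-fibre score as covariate, and each library left out.

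The closest pair of libraries within each group differed by more than sampling noise (chi-square over its degrees of freedom 4.03 to 12.2). Same-numbered samples of different groups had deviations correlating from -0.45 to 0.44, so the numbers were not taken to pair samples.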

Additional observations from a re-analysis of the deposited data

Results flagged for a closer look

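Jun in vehicle at rest had its lowest library, replicate 4 (78.5 CPM), apart from the other 4, with a gap of 0.773 of the group's whole range in log2 CPM. Fosb had a library with 0 counts standing apart in knockout-labelled muscle at rest (replicate 3, gap 0.870 of the range in log2 CPM) and after exercise (replicate 4, gap 0.769). The other libraries of these groups held 4 to 6 counts, so a count of 0 is a small absolute difference. The critical gap for 5 samples is 0.71. Of 32 combinations of member and group, 3 had such a library, where chance gives about 5% of groups.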

How the results depend on the processing

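Fosb was called for exercise in vehicle and for genotype after exercise in all 8 alternatives that tested it. Both calls also held in all 10 fits without 1 library. With a minimum of 30 counts Fosb was not tested. Both calls rest on exercised vehicle muscle, the only group through which Fosb passed the main count filter. Of the 8 members, 4 were called for exercise in vehicle; fitting only the groups compared gave 2, limma-voom gave 2, and leaving out 1 library gave 1 to 4. For genotype after exercise, where 2 were called, fitting only both groups gave 1. Counts over all genes moved as well. For exercise in vehicle (109 genes) the slow-fibre covariate gave 248, only both groups 61, DESeq2 195, and fits without 1 library 52 (without vehicle at rest replicate 5) to 135. The covariate gave 5 for exercise in knockout-labelled muscle (0), 854 for genotype at rest (523) and 1417 for genotype after exercise (870), where only both groups gave 567. Without TMM 449 of 845 genes were higher there, against 362 of 870. For the difference of responses DESeq2 gave 3, and fits without 1 library 0 to 1 (1 without knockout-labelled at rest replicate 3).

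Values near 0 changed sign. For exercise in vehicle, Jun was 0.0852 on the log2 scale with the covariate, and Jund -0.0205 with library size only, -0.00293 with a minimum of 30, -0.0152 with the replicate block and -0.0162 with limma-voom; without 1 library Jun ran from -0.10 to 0.13 and Jund from -0.10 to 0.11. In knockout-labelled muscle Jun was 0.00754 with library size only and 0.14 with the covariate, and Jund -0.00469 with limma-voom; without 1 library Fosb ran from -0.0244 to 0.56, Jun from -0.21 to 0.16 and Jund from -0.0451 to 0.20. At rest Fosb was -0.22 with limma-voom; without 1 library Fosb ran from -0.12 to 0.41, Fosl2 from -0.0248 to 0.13 and Junb from -0.27 to 0.0546. For the difference of responses Atf3 was -0.0618 with the replicate block and -0.0552 with limma-voom, and Jun 0.0368 with library size only and 0.0598 with the covariate; without 1 library Atf3 ran from -0.45 to 0.74, Jun from -0.21 to 0.16 and Jund from -0.0554 to 0.20. The cause was not tested.

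Same-numbered samples had a median correlation of 0.09 over 30 pairs, against -0.02 over 120 others, and 4 of 20 samples correlated best with their own number. With the replicate block, the calls over all genes were 100 for exercise in vehicle, 0 in knockout-labelled muscle, 518 at rest, 824 after exercise and 0 for the difference, and those of members 3, 0, 0, 2 and 0; the member lost was Maff. Fosb had at most 6 counts per library outside exercised vehicle muscle, and at this depth smaller changes of it could not be resolved.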
